A study of Mus musculus with 2 samples.

Results

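Germinal center B cells that carried messenger RNA of only one of the activation genes Cd86 and Cd83 were compared here. The cells came from spleens of 8-week-old C57BL/6J mice, an inbred strain, after immunization with SRBC (sheep red blood cells), and no treatment or genotype sets the samples apart. They were sorted as germinal center B cells and read in 2 droplet libraries of the 3′ ends of transcripts, in which each captured RNA molecule is counted once by a unique molecular identifier (UMI). The labels name the libraries by number and do not say how many animals gave the cells or whether the libraries hold separate animals. Every p-value below therefore rests on these 2 libraries alone. With the library as a block, the fit of Cd86-only against Cd83-only cells left 1 residual degree of freedom. The spread of a gene was therefore estimated with help from other genes. A small p-value or SE thus does not show that a gene's own class difference varied little between the libraries. Such variation may be technical. Barcodes entered if they held no fewer than 500 genes and 3000 UMIs, took at most 20% of the UMIs from mitochondrial genes, and had no UMI of Cxcr4, the chemokine receptor of dark zone cells. Cd86-only cells had at least 1 UMI of Cd86 and none of Cd83. Cd83-only cells had at least 2 UMIs of Cd83 and none of Cd86. Of 16633 barcodes, 1042 were members, 493 of them Cd86-only (319 in library 1 and 174 in library 2) and 549 Cd83-only (326 and 223).

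CD86 is a costimulatory ligand that engages CD28 on T cells, and CD83 is a membrane protein that stabilizes MHC class II and CD86 at the surface by opposing ubiquitin ligases of the MARCH family. Both are used in flow cytometry to gate the light zone, the part of the germinal center where B cells take up antigen from follicular dendritic cells, present it and compete for help from T follicular helper cells. Help arrives largely through CD40 and cytokine receptors and acts through NF-kB factors and MYC, after which selected cells return to the dark zone to divide and mutate. The gate here was read as RNA and not as protein, and a gene with no UMI in a cell may still be expressed there.

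The counts that defined the classes were low, and they are given only as a description. Exactly 1 Cd86 UMI was found in 239 Cd86-only cells of library 1 (74.9%) and 128 of library 2 (73.6%), with at most 6 and 5. Exactly 2 Cd83 UMIs, the threshold, were found in 137 (42.0%) and 73 (32.7%) Cd83-only cells, with at most 23 and 33. Just outside the threshold lay 230 and 146 cells with 1 Cd83 UMI and no Cd86, and 207 and 147 cells with 1 Cd83 UMI and Cd86. The rule itself thus set a stricter demand on Cd83 than on Cd86. Cxcr4, Cd83 and Cd86 were left out of all sums and tests.

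For each library, equal numbers of both classes were drawn in bins of total UMIs, 303 cells of each class in library 1 and 170 in library 2. Their median depths were 6953 and 6795 UMIs in library 1 and 6448 and 6431.5 in library 2, Cd86-only first. UMIs were summed per library and class and are given as CPM, a gene's count scaled to the total count of its sum. For reference, the same sums were made for cells without Cxcr4 that had neither transcript (297 and 166 cells drawn to the same bins) and for cells with both, defined by at least 2 Cd83 and at least 1 Cd86 UMIs (287 and 170 cells). Each sum held all 11 markers of germinal center B cells, which added up to 3190 and 3480 CPM in Cd86-only against 3130 and 3580 CPM in Cd83-only cells. Bcl6, the master regulator of the germinal center, stood at 123 and 127 CPM against 122 and 125 CPM and was not called (log2 fold change 0.01, SE 0.11, edgeR adjusted p = 0.988). The labelled sort therefore held its defining genes in both classes. Of 10 T cell markers, 5 and 2 were detected in Cd86-only and 2 and 3 in Cd83-only cells, summing to 4.53 and 4.43 CPM against 3.81 and 8.95 CPM, with Cd3e and Cd3g at 0 in all 4 sums of these classes. In neither cells 4 and 8 of the 10 were detected, at 4.13 and 39.2 CPM, so library 2 held more T cell transcripts there. Neutrophil and platelet markers were at 0 throughout.

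Macrophage markers moved with the Cd86-only class in 1 library. The 12 macrophage genes summed to 104 CPM in Cd86-only cells of library 1 (10 of 12 detected, Lyz2 and Fcgr1 at 0) and to 5.72 CPM in its Cd83-only cells (4 of 12). In library 2 they summed to 14.8 and 8.95 CPM, with 4 and 3 of 12 detected. Vcam1 was at 22.6 CPM and C1qa, a complement gene of macrophages, at 15.1 CPM in Cd86-only cells of library 1, and both were at 0 in the other 3 sums of these classes. Neither cells held 9 and 4 of the 12 macrophage genes, at 25.2 and 13.6 CPM. Cells with both transcripts held 9 and 4, at 20.7 and 13.3 CPM. The shares of cells with at least 2 UMIs of markers of other lineages were 9.57% and 8.58% in library 1 and 10.0% and 11.2% in library 2, Cd86-only first. Among these markers was Pecam1, the only stromal marker detected in the Cd86-only and Cd83-only sums. Pecam1 was at 36.6 and 36.2 CPM in Cd86-only and 38.9 and 40.3 CPM in Cd83-only cells. That was above the macrophage sum in each but Cd86-only cells of library 1. The shares are therefore not a count of cells of other lineages. At a mitochondrial limit of 10%, where 55 and 23 cells of each class were left, these shares were 20% and 9.09% in library 1 and 21.7% and 8.7% in library 2, higher in Cd86-only cells in both. The cells left were deeper, with medians of 12932 and 12619 UMIs in library 1 and 13909 and 13138 in library 2. Depth's part in these shares was not tested. Without cells with at least 2 UMIs of these markers, at the 20% limit, 306 genes were called in place of the 425 given next.

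The test was edgeR's quasi-likelihood test with Benjamini-Hochberg adjustment over all 8702 genes that passed a filter on low counts, with the library as a block and a call at an adjusted p below 0.05. It called 425 genes (4.88%), of which 214 (2.46%) were higher and 211 (2.42%) lower in Cd86-only than in Cd83-only cells, and 422 of the 425 had the same sign in each library. With 4 sums the fit had little information on spread: DESeq2 called 31 genes and edgeR without the library block called 32. Of the 77 called genes that the naming rule put forward, DESeq2 gave an adjusted p for 50 and called 19, and edgeR without the block called 19. All 77 had the same sign under both, but both were fitted to the same 4 sums, so the shared sign is not separate evidence. The counts by DESeq2 are therefore given for the main lists. Without the block, edgeR called 5 of 24 light zone, 3 of 25 NF-kB, 0 of 13 class II and 8 of 52 G2/M genes of the lists described below, in the same direction as with it.

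Light zone genes were lower in Cd86-only cells. Of 24 genes of the light zone list, 17 were called lower in Cd86-only cells and 0 higher, with a median log2 difference of -1.03 against -0.00812 over all genes tested. DESeq2 called 5 of the 9 for which it gave an adjusted p. Early genes, NF-kB genes and cytokine response genes are taken in turn. The plot of named genes shows their levels per library.

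**Figure D1:**
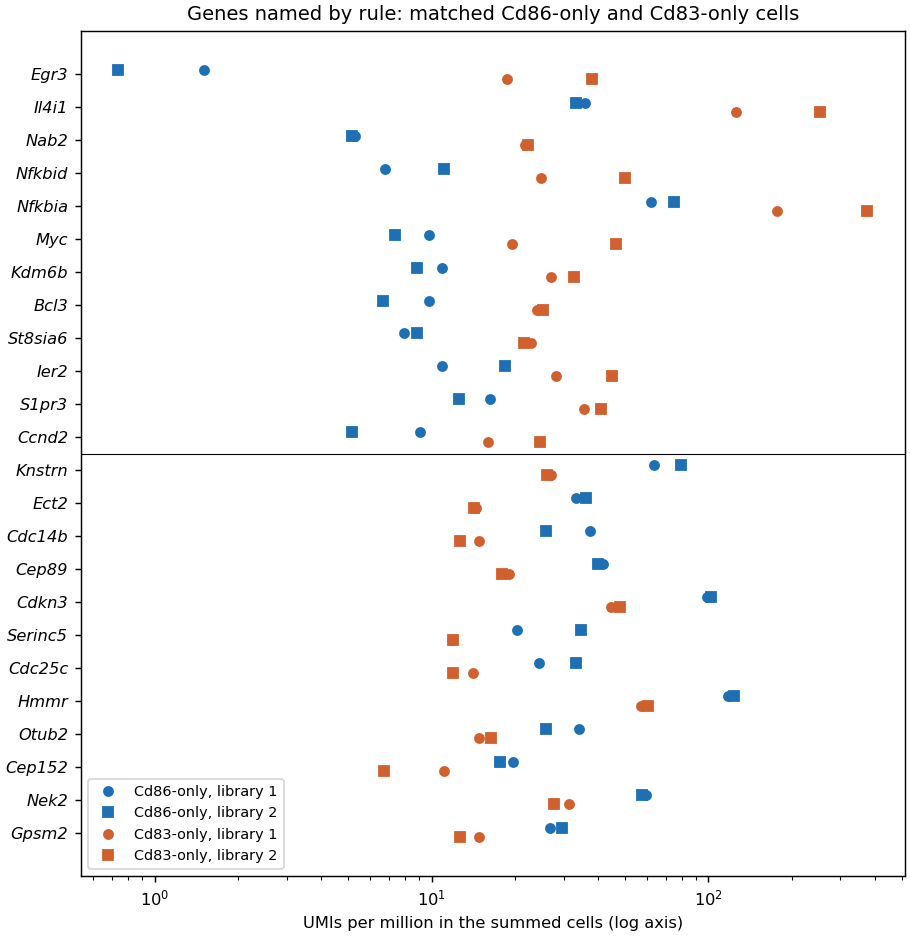
Levels of the 12 genes of largest fold change in each direction, in CPM of the summed cells on a log axis, with 1 point per library and class. For each gene above the line both Cd86-only points (blue) lie left of both Cd83-only points (orange), and for each gene below the line they lie right of them, Nfkbia at 62.2 and 75.3 CPM against 177 and 374 CPM.

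Several early genes of antigen receptor signalling were lower in Cd86-only cells. Egr3, a zinc finger factor induced within minutes to hours of receptor engagement (ENSMUSG00000033730, chromosome 14, 70077203 to 70082614, mm10), gave 4 and 1 UMIs in Cd86-only cells against 49 and 51 in Cd83-only cells. The ratio was 12.4 in library 1 (95% exact counting interval 4.54 to 47.3) and 51.5 in library 2 (8.84 to 2070), higher in Cd83-only cells in each. These intervals cover counting error only. In cells with neither transcript Egr3 was at 0.827 and 0 CPM, and in cells with both at 40.7 and 56.2 CPM, so that the sums of the 2 classes with Cd83 were high and those of the 2 without it were low. Inside the Cd83-only class, with all members, Egr3 was at 1.72 and 21.3 CPM with 2 Cd83 UMIs. It was at 17.9 and 22.3 CPM with 3 or 4 and at 36.6 and 32.0 CPM with 5 or more. Cells with 1 UMI of each transcript held 0.844 and 0 CPM of Egr3. Egr2, a related factor, had 5 and 1 UMIs against 14 and 13 UMIs, a ratio of 2.83 (0.964 to 10.0) and 13.1 (1.97 to 558). Nab2, a corepressor that binds EGR proteins, was at 5.28 and 5.17 CPM in Cd86-only cells and 21.7 and 22.4 CPM in Cd83-only cells (log2 fold change -2.06, SE 0.34, edgeR adjusted p = 1.58e-07). Ier2, another early gene, was at 10.9 and 18.5 CPM against 28.2 and 44.8 CPM.

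The early genes did not all move one way. Of 18 tested, 7 were lower (Egr1, Egr2, Egr3, Junb, Ier2, Dusp2 and Nab2) and 2 higher in Cd86-only cells, with a median log2 difference of -0.318. The list's median was above 0 at a mitochondrial limit of 10% (0.0422) and with at least 2 Cd86 UMIs (0.134). The higher genes were Klf6, a zinc finger factor, at 106 and 107 CPM against 74.0 and 63.4 CPM, and Jund, a constitutive AP-1 subunit, at 529 and 700 CPM against 496 and 537 CPM. Dusp2, a phosphatase that ends MAP kinase signalling, was the 1 early gene that DESeq2 also called, at 167 and 197 CPM against 245 and 313 CPM. Fos, the AP-1 subunit that tissue dissociation also induces, was at 164 and 160 CPM against 124 and 142 CPM and was not called (edgeR adjusted p = 0.0506).

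Many genes of the NF-kB pathway were higher in Cd83-only cells, among subunits, inhibitors and targets. Of 25 genes, 14 were lower in Cd86-only cells and 1 higher, with a median of -0.712, and DESeq2 called 2 of the 10 for which it gave an adjusted p, Nfkbia and Bcl2a1b. This list shares Nfkbia, Nfkb2, Relb, Bcl2a1b, Bcl2a1d, Cd40, Traf1, Ebi3 and Cflar with the light zone list. All of these but Traf1, Ebi3 and Cflar were called, so the results of the lists are not separate. Among subunits, Rel was at 106 and 104 CPM in Cd86-only cells and at 159 and 186 CPM in Cd83-only cells, and the groups did not overlap. Relb, the subunit of the alternative pathway that CD40 triggers, was at 11.7 and 25.1 CPM against 31.3 and 47.0 CPM, and its partner Nfkb2 at 12.4 and 27.3 CPM against 33.9 and 52.2 CPM. Both libraries showed the direction for Rel, Relb and Nfkb2, with more spread between libraries in the alternative pathway. Nfkb1 was also called lower in Cd86-only cells, and the subunit Rela was not called.

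Several inhibitors followed these subunits, whereas Nfkbib and Tnip1 of the same list were not called. Nfkbia encodes I-kappa-B-alpha, which holds NF-kB in the cytoplasm and is itself an NF-kB target (ENSMUSG00000021025, chromosome 12, 55489410 to 55492647, minus strand). It was at 62.2 and 75.3 CPM in Cd86-only cells and at 177 and 374 CPM in Cd83-only cells (-1.89 on the log2 scale, SE 0.10, edgeR adjusted p = 3.31e-70). Nfkbid, a nuclear member of the same family, was at 6.79 and 11.1 CPM against 24.8 and 50 CPM. Bcl3 and Nfkbiz, also nuclear members, the inhibitor Nfkbie and the deubiquitinase Tnfaip3, which shuts the pathway off, were lower in Cd86-only cells as well, with log2 fold changes from -0.59 to -1.49. For Nfkbia, cells with neither transcript had 65.3 and 62.3 CPM and cells with both had 364 and 422 CPM. Cd86-only and neither cells were thus close for this gene, at a log2 difference of 0.04 (edgeR adjusted p = 0.979), which does not show that they are alike.

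Targets included survival genes. Bcl2a1b, an antiapoptotic BCL2 relative that belongs to a set of near-identical copies whose 3′ reads can be split between them, was at 50.5 and 59.8 CPM against 83.5 and 144 CPM. Bcl2, which blocks death at the mitochondrion and is usually low in germinal centers, was at 4.90 and 7.39 CPM in Cd86-only cells and at 14.5 and 24.6 CPM in Cd83-only cells. With Bcl2a1d, these were the 3 of 18 survival and death genes that were called, all lower in Cd86-only cells. Gadd45b, a stress-induced gene often listed as an NF-kB target, went the other way, at 153 and 197 CPM against 113 and 124 CPM.

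The Nfkbia promoter is shown because this gene had the smallest p of the NF-kB list. It is the 250 bases before the transcript start on the gene's strand, chr12:55492648-55492897 (RefSeq, GRCm38.p6), with 2 matches to an NF-kB motif in capitals, at first bases -212 and -29 from the start. The motif searched, on both strands, was GGGA, then any 4 bases, then CC.

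Nfkbia: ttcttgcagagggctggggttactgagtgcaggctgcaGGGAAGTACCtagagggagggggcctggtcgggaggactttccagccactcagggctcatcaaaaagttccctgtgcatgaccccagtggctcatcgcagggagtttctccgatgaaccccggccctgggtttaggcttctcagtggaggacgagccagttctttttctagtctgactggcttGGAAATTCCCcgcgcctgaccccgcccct

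The motif was found on either strand in 5 of the 10 called and lower NF-kB list genes with a promoter in the table (50%), namely Nfkb2, Rel, Nfkbia, Nfkbid and Tnfaip3. In the whole list, called or not, 9 of 19 genes with a promoter (47.4%) held the motif. Among all tested genes with a promoter it was found in 25.3% (1733 of 6841), and among all 27025 genes with one in 19.7%. Genes with several transcript starts had several windows, and a match in any counted. A match is a description of letters and not a bound site.

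Cytokine response genes and receptors formed another group that was lower in Cd86-only cells. Il4i1, an L-amino acid oxidase that interleukin 4 induces (ENSMUSG00000074141, chromosome 7, 44816387 to 44840809), was at 35.8 and 33.2 CPM against 126 and 252 CPM. Its log2 fold change was -2.28 (SE 0.13, edgeR adjusted p = 1.08e-64), with neither cells at 26.5 and 28.8 CPM and both cells at 348 and 447 CPM. Fcer2a, the low-affinity IgE receptor CD23 and another interleukin 4 target, was at 104 and 123 CPM against 221 and 279 CPM (log2 fold change -1.14, SE 0.09, adjusted p = 1.4e-30 by edgeR). DESeq2 called both genes, which with Batf are also on the light zone list. Of 12 genes of the interleukin 4 and interleukin 21 response list, 5 were lower and 0 higher, the others being Batf, a factor needed for class switching, and the receptor chains Il4ra and Il21r. The shared receptor chain Il2rg was lower too, at 27.5 and 31.8 CPM against 53.8 and 63.4 CPM.

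Genes through which B and T cells signal to each other followed in part. Of 18 tested, 9 were lower and 1 higher in Cd86-only cells, at a median of -0.248, and this list shares Cd40 and Icosl with the light zone list. Cd40, the receptor for CD40 ligand, was at 27.1 and 26.6 CPM against 46.5 and 75.3 CPM (log2 fold change -1.08, SE 0.18, edgeR adjusted p = 3.51e-07). Slamf1, a homotypic adhesion receptor, was at 58.5 and 76.1 CPM against 106 and 148 CPM, and DESeq2 called it. Icosl, the ligand of ICOS on T follicular helper cells, was at 22.2 and 26.6 CPM against 35.9 and 37.3 CPM, just inside the threshold (adjusted p = 0.0476 by edgeR). Slamf6, a relative of Slamf1, was the exception, at 147 and 143 CPM against 101 and 99.2 CPM. Cd80, the other CD28 ligand, was too low to test, at 1.51 and 1.48 CPM in Cd86-only cells and 0.381 and 0 CPM in Cd83-only cells.

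Myc, the growth-driving transcription factor that marks positively selected cells, was at 9.81 and 7.39 CPM in Cd86-only cells and 19.4 and 46.2 CPM in Cd83-only cells. The difference was in the same direction in both libraries but uneven, with log2 differences of -0.95 and -2.57 (fitted -1.67, SE 0.27, edgeR adjusted p = 1.36e-07), and DESeq2 did not call it. Ccnd2, a D-type cyclin of light zone cells, was at 9.05 and 5.17 CPM against 16.0 and 24.6 CPM. At a mitochondrial limit of 10% its log2 difference was -0.0382 (edgeR adjusted p = 0.998). It was also not called by edgeR at 6000 or more UMIs, with Cd86 at least 2 or without the library block (adjusted p = 0.173, 0.757 and 0.185). It stayed called with Cd83 at least 1, with equal phases, without cells with other-lineage UMIs and with germinal center genes required. Ccnd3, the D-type cyclin that drives dark zone divisions, went the other way, at 294 and 274 CPM against 233 and 234 CPM. Ribosome biogenesis genes, many of them MYC targets, were lower in 9 of 20 cases and higher in 0, with a median of -0.369 and all 20 values negative, and DESeq2 called 1 of the 15 for which it gave an adjusted p. That gene was Gnl3, a nucleolar GTPase also called nucleostemin, at 79.95 and 79.0 CPM against 151 and 166 CPM. Of 9 genes of the MYC partner network, Myc alone was called.

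Antigen presentation genes differed by less. Of 13 MHC class II presentation genes, 7 were lower in Cd86-only cells and 0 higher, at a median of -0.31, and DESeq2 called 4 of the 13, the class II chains H2-Aa, H2-Ab1 and H2-Eb1 and the invariant chain Cd74. H2-Aa was at 841 and 1005 CPM in Cd86-only cells and at 1186 and 1448 CPM in Cd83-only cells (log2 fold change -0.52, SE 0.05, adjusted p = 4.27e-22 by edgeR). Without the library block H2-Aa was not called (edgeR adjusted p = 0.185), and with at least 2 Cd86 UMIs 0 of the 13 genes were called by edgeR. Ciita, the master activator of class II genes, was at 285 and 268 CPM against 383 and 369 CPM. Of 14 class I presentation genes, 4 were lower (H2-K1, H2-D1, Tapbp and Calr), at a median of -0.103. March1, the ubiquitin ligase that removes class II and CD86 from the surface and that CD83 opposes, was at 150 and 160 CPM against 131 and 128 CPM and was not called (log2 difference 0.24, SE 0.10, edgeR adjusted p = 0.195). None of the 5 MARCH genes tested was called by edgeR, nor either of the 2 for which DESeq2 gave an adjusted p.

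H2-Aa was graded over the 4 classes. It was at 640 and 786 CPM in neither cells, below Cd86-only cells, and at 1726 and 2281 CPM in cells with both, above Cd83-only cells. In the fit of all 4 classes, 5 of 13 class II genes were higher in Cd86-only than in neither cells, where 0.37% of all 8930 genes tested were higher and 0.269% lower. In the same fit, 9 of 13 were higher in Cd83-only than in neither cells, where 4.06% of all genes were higher and 3.64% lower. The comparisons share the neither cells. Outside the list and chosen after its values were seen, Cd52, a small surface glycoprotein of lymphocytes, ran 826 and 597, then 1028 and 861, then 1426 and 1248, then 1943 and 1681 CPM from neither through Cd86-only and Cd83-only to both. Fcer2a, Cd53, Hvcn1 and Napsa were likewise higher in Cd86-only than in neither cells and higher again in Cd83-only than in Cd86-only cells.

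**Figure D2:**
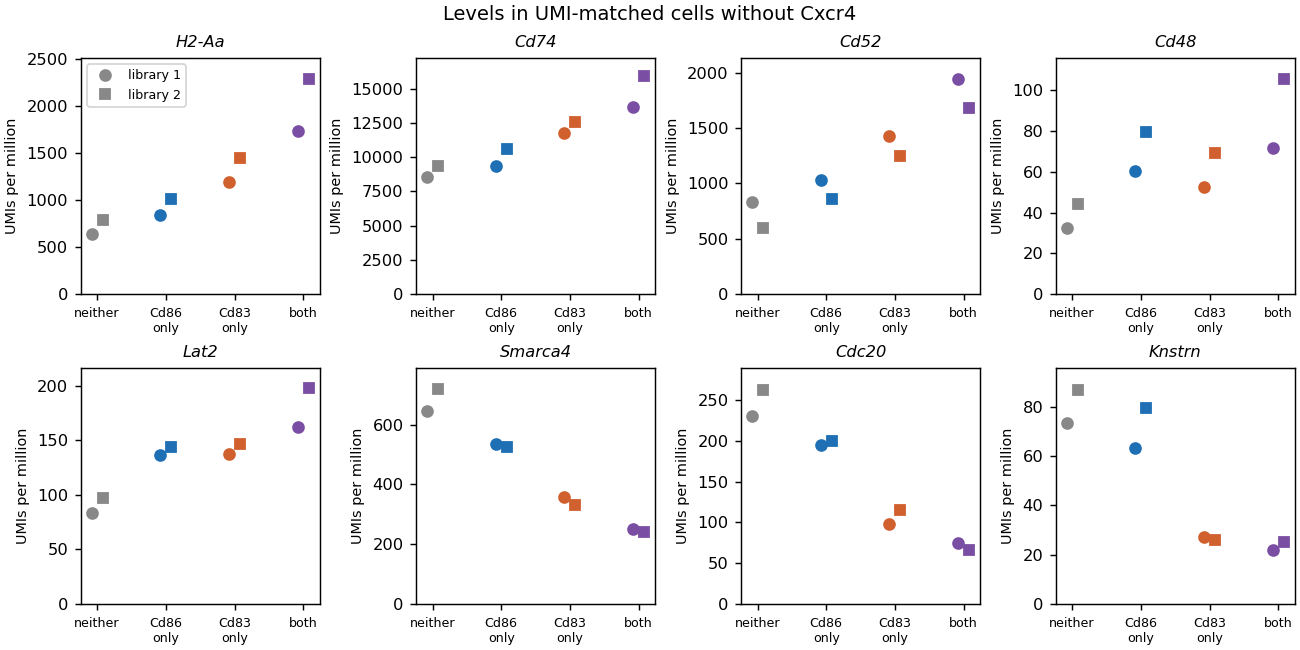
Levels of 8 genes in CPM of the summed cells, by class (neither, Cd86-only, Cd83-only, both) and library (circles library 1, squares library 2), each axis starting at 0. H2-Aa climbs from 640 and 786 to 1726 and 2281 CPM across the classes, Lat2 and Cd48 part neither cells from the rest, and Smarca4 steps down from 645 and 721 to 250 and 240 CPM.

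A few genes separated Cd86-only from neither cells with no call between the marked classes. Cd48, a ligand of SLAM family receptors, was at 60.3 and 79.8 CPM in Cd86-only cells, 52.6 and 69.4 CPM in Cd83-only cells and 32.2 and 44.0 CPM in neither cells. It was higher in Cd86-only than in neither cells by 0.86 on the log2 scale (edgeR adjusted p = 0.00184). Lat2, an adaptor of B cell receptor signalling, was at 136 and 144, 137 and 147, and 83.1 and 97.5 CPM in the same order. Between the marked classes Lat2 differed by -0.03 (SE 0.10). Cr2, the complement receptor that lowers the threshold for antigen, was at 135 and 137, 164 and 146, and 90.5 and 89.5 CPM. These 3 genes were low in neither cells in each library, and the neither values did not overlap those of the marked classes.

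Over all genes, Cd86-only cells differed from neither cells in 57 of 8930 genes (0.638%, 33 higher and 24 lower) and Cd83-only cells in 688 (7.70%, 363 higher and 325 lower). DESeq2 gave 11 and 166, and without the library block the counts were 0 and 222, where 413 genes had an unadjusted p below 0.05 for Cd86-only cells. Both comparisons use the same neither cells and similar numbers of cells. List by list, the 24 light zone genes had a median log2 difference from neither cells of 0.282 in Cd86-only cells (1 called higher, Fcer2a) and of 1.15 in Cd83-only cells (17 higher). NF-kB genes had medians of 0.0929 (0 of 24 called) and 0.805 (16 higher and 1 lower). Whether the counts of called genes differ between the classes was not tested, and the values are side by side only.

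Dark zone genes were higher in Cd86-only than in Cd83-only cells. Of 12, 8 were called higher and 0 lower, with a median log2 difference of 0.727, though edgeR without the library block called none of the 12 and DESeq2 none of the 6 for which it gave an adjusted p. Against neither cells, 0 of the 12 were called in Cd86-only cells, at a median of 0.0347. In Cd83-only cells 6 were lower than in neither cells and 0 higher, at a median of -0.618. Gcsam, a signalling adaptor of germinal center B cells, was at 123 and 99.7 CPM against 67.1 and 77.6 CPM (log2 fold change 0.68, SE 0.12, edgeR adjusted p = 3.48e-06). Rgcc, a cell cycle regulator of dark zone cells, was at 57.7 and 77.5 CPM against 36.2 and 35.1 CPM. Bach2, a repressor that holds back plasma cell fate, was at 362 and 325 CPM against 281 and 266 CPM, and Foxo1, the dark zone regulator, at 168 and 155 CPM against 146 and 141 CPM without a call (edgeR adjusted p = 0.418). In cells with both transcripts Rgcc was at 14.9 and 18.5 CPM, the lowest of the 4 classes.

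**Figure D3:**
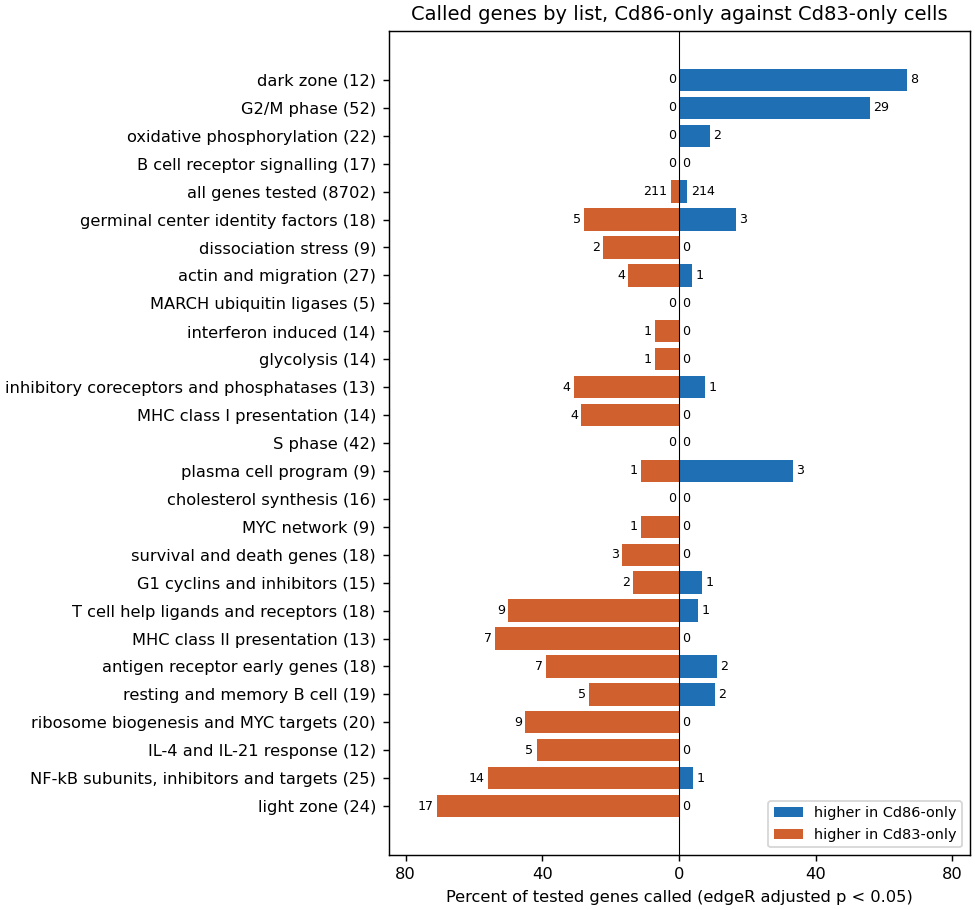
Share of tested genes called by edgeR in each gene list, to the right where higher in Cd86-only cells and to the left where higher in Cd83-only cells, with the number of genes called beside each bar and the number tested in parentheses. Light zone (17 of 24) and NF-kB (14 of 25) genes extend left, dark zone (8 of 12) and G2/M (29 of 52) genes extend right, and S phase (0 of 42) genes show no bar against 4.88% over all genes. The light zone and NF-kB lists share genes.

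Genes of the G2 and M phases of the cell cycle were higher in Cd86-only cells, with more calls than any other list in that direction. Of 52, 29 were called higher and 0 lower, all 52 values were positive, and the median was 0.372, whereas 0 of 42 S phase genes were called (median -0.113). DESeq2 called 7 of the 36 for which it gave an adjusted p. Against neither cells, 3 of the 52 were lower and 0 higher in Cd86-only cells, at a median of -0.111. In Cd83-only cells 34 were lower than in neither cells and 0 higher, at a median of -0.506. Knstrn, a spindle and kinetochore protein (ENSMUSG00000027331, chromosome 2, 118814003 to 118853957), was at 63.4 and 79.8 CPM against 27.1 and 26.1 CPM (log2 fold change 1.36, SE 0.17, edgeR adjusted p = 1.47e-12), though it is not on the list. Hmmr, which binds the mitotic spindle, was at 118 and 123 CPM against 57.2 and 60.4 CPM. Cdc20, the activator of the anaphase-promoting complex, was at 195 and 199 CPM against 98.0 and 116 CPM, and Ube2c, that complex's ubiquitin-conjugating enzyme, at 288 and 258 CPM against 144 and 168 CPM. DESeq2 called all 4.

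Other proteins of mitosis showed the same direction. Cenpe, the kinetochore motor, was at 374 and 349 CPM in Cd86-only cells against 210 and 204 CPM in Cd83-only cells, and neither cells were higher still at 475 and 474 CPM. Cdkn3, a phosphatase of cyclin-dependent kinases, was at 98.4 and 102 CPM against 44.6 and 47.8 CPM, and Nek2, a centrosome kinase, at 59.6 and 57.6 CPM against 31.3 and 27.6 CPM. Ect2, which sets the cleavage furrow, and Cdc25c, the phosphatase that starts mitosis, had log2 fold changes of 1.24 (SE 0.23) and 1.03 (SE 0.25). Mki67, the proliferation marker, was at 1527 and 1306 CPM against 1138 and 1254 CPM, with log2 differences of 0.42 and 0.06 by library. When the classes were also drawn to equal shares of each phase, the fitted Mki67 difference was -0.0172, 14 of 52 G2/M genes were called higher with a median of 0.264, and Knstrn stood at 1.10 (edgeR). Among other genes named for the size of their change, the centrosome protein genes were Cep89, at 41.5 and 39.9 CPM against 19.1 and 17.9 CPM, and Cep152, at 19.6 and 17.7 CPM against 11.1 and 6.71 CPM. Gpsm2, which orients the spindle, was at 26.8 and 29.5 CPM against 14.9 and 12.7 CPM. Cdc14b, a phosphatase of mitotic exit, was at 37.3 and 25.9 CPM against 14.9 and 12.7 CPM. Otub2, a deubiquitinase on the dark zone list, was at 33.9 and 25.9 CPM against 14.9 and 16.4 CPM, and Serinc5, a membrane protein, at 20.4 and 34.7 CPM against 11.8 and 11.9 CPM.

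Per-cell phases, read after thinning every cell to 3000 UMIs, had the same direction. G2/M-like cells made up 41.9% of Cd86-only cells in library 1 (127 of 303, exact 95% binomial interval 36.3% to 47.7%) and 26.1% of Cd83-only cells (79 of 303, 21.2% to 31.4%). In library 2 they made up 31.2% (24.3% to 38.7%) and 22.9% (16.9% to 30.0%), and these intervals overlap. The difference was 12 ± 5.3 percentage points (SD, n = 2 libraries), and 13.9 ± 4.6 without thinning. G1-like shares were lower in Cd86-only cells by 7.6 and 9.4 points, whereas the S-like share had no common direction, with differences of -8.3 and 1.1 points. Neither cells had the highest G2/M-like shares, 51.2% and 45.2%, and cells with both the lowest, 23.0% and 18.2%. With 2 libraries no exact permutation test can go below p = 0.333, so no test was made, and a phase call is a range of a score of the G2/M and S lists and not a separate readout from their genes.

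**Figure D4:**
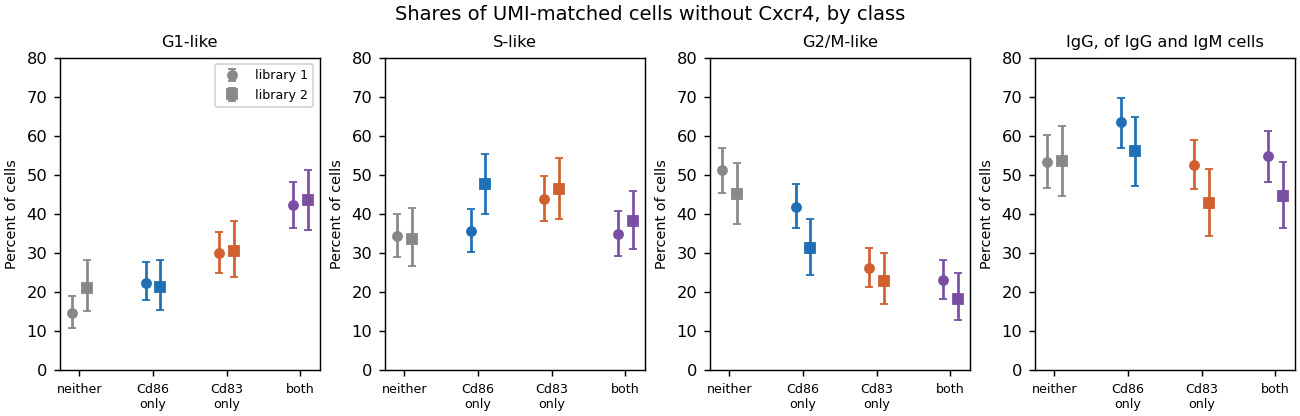
Percent of cells called G1-like, S-like and G2/M-like, and percent IgG among cells called IgG or IgM, by class and library, with exact 95% binomial intervals as bars. The G2/M-like share goes from 51.2% and 45.2% in neither cells to 23.0% and 18.2% in cells with both, and the IgG share is highest in Cd86-only cells, at 63.6% and 56.2%.

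Promoters of mitotic genes share short elements that recruit cell cycle repressor and activator complexes late in the cycle, chief among them the cell cycle genes homology region (CHR, TTTGAA) and the CCAAT box (CCAAT). The promoters of Cdc20 and Cdkn3 are shown because both genes were higher in Cd86-only cells by edgeR and by DESeq2 and both carry the CHR letters. Ube2c also carried them. Hmmr, Knstrn, Nek2 and Cenpe, likewise higher in Cd86-only cells, did not. Capitals mark the CHR on either strand, with first bases at -18 in Cdc20 (chr4:118437344-118437593, minus strand) and -111 in Cdkn3 (chr14:46760291-46760540, plus strand), from RefSeq, GRCm38.p6.

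Cdc20: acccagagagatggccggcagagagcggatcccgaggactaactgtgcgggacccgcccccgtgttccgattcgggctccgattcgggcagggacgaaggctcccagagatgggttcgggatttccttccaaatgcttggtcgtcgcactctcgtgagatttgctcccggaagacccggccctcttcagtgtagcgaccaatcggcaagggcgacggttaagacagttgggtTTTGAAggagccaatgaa

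Cdkn3: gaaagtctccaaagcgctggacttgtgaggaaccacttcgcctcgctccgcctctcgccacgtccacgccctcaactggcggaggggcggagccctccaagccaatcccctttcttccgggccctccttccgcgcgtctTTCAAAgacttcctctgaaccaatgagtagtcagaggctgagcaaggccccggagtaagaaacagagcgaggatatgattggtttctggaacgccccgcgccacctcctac

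Of the 25 called G2/M list genes with a promoter in the table, 13 held TTTGAA on either strand (52.0%), against 12.7% of tested genes (871 of 6841) and 18.3% of all genes with a promoter. CCAAT was found on either strand in 21 of the 25 (84.0%), against 41.4% of tested genes and 37.5% of all. A match to TTTGAA and one to CCAAT can share at most a base at their ends. In the whole list, called or not, 20 of 46 genes with a promoter (43.5%) held the CHR letters.

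Levels were also graded inside the Cd83-only class, with all members and no matching on depth. Nfkbia was at 120 CPM in cells with 2 Cd83 UMIs, 150 with 3 or 4 and 267 with 5 or more in library 1, and at 160, 214 and 532 CPM in library 2. Il4i1 ran 58.5, 105 and 204 CPM and 83.4, 147 and 329 CPM over the same strata. Both genes were thus higher at each step in both libraries, with no test, and cells just outside the class, with 1 Cd83 UMI, were lower again, at 77.3 and 97.2 CPM for Nfkbia. Cells with 5 or more UMIs were also deeper, with median depths of 8953 and 9375 UMIs against 6560 and 5839 in cells with 2. Depth's part in these steps was not tested.

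Other genes stood apart at the top step only. Batf was at 21.5 and 37.3 CPM with 2 Cd83 UMIs, at 22.6 and 25.5 CPM with 3 or 4, and at 84.5 and 142 CPM with 5 or more. Ccnd2 was at 8.60 and 7.10, then 7.14 and 4.78, then 55.4 and 53.7 CPM in the same strata. The mitotic genes ran the opposite way: Cenpe was at 261 and 197 CPM with 2 UMIs and at 152 and 142 CPM with 5 or more, and Hmmr at 86.9 and 92.3 CPM and at 35.7 and 41.3 CPM. Cells with 2 Cd83 UMIs thus lay nearer to Cd86-only cells than those with 5 or more for Cenpe and Hmmr in both libraries, where cells with 1 Cd86 UMI held 375 and 351 CPM of Cenpe and 128 and 125 CPM of Hmmr.

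**Figure D5:**
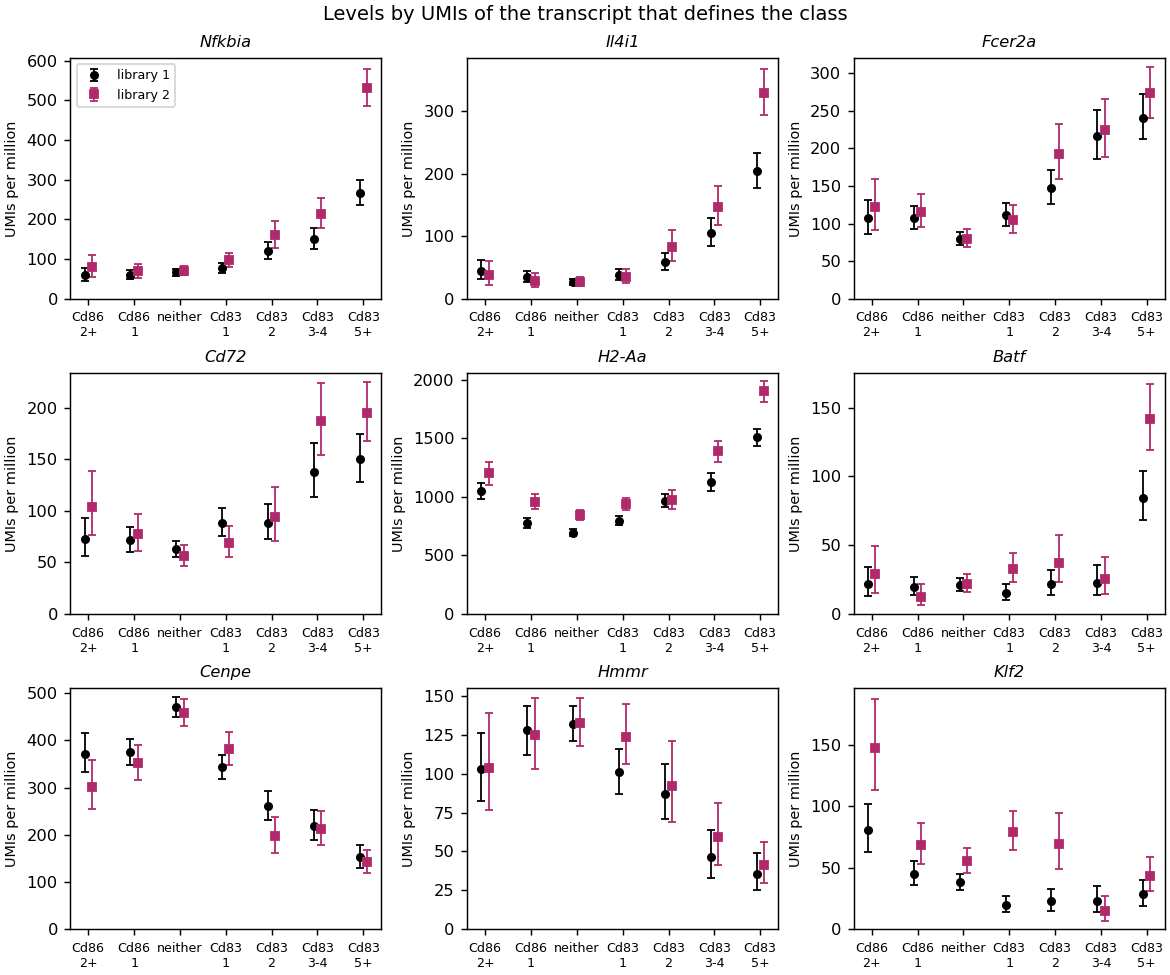
Levels of 9 genes in CPM of all cells of a stratum, by the number of UMIs of the defining transcript and by library, with exact 95% Poisson intervals as bars and each axis starting at 0. From Cd83 1 to Cd83 5 or more, Nfkbia goes from 77.3 to 267 CPM in library 1 and from 97.2 to 532 CPM in library 2, whereas Cenpe goes down to 152 and 142 CPM, and Klf2 is highest in cells with 2 or more Cd86 UMIs.

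Within the Cd86-only class, cells with at least 2 Cd86 UMIs (80 and 46 cells) had no common direction in Nfkbia and few Egr3 UMIs. Nfkbia was at 60.7 and 69.1 CPM with 1 Cd86 UMI and at 59.9 and 80 CPM with 2 or more, and Egr3 at 1.53 and 1.03 CPM and at 1.15 and 0 CPM. H2-Aa was higher, at 775 and 954 CPM against 1050 and 1200 CPM, as was Cd48, at 51.5 and 72.1 CPM against 88.7 and 95.6 CPM. Klf2, a factor of quiescent and recirculating lymphocytes, was at 44.9 and 68.0 CPM with 1 UMI and at 80.7 and 147 CPM with 2 or more. S100a10, a partner of annexin A2 that is high in memory B cells, was at 2.55 and 8.25 CPM and at 30.0 and 51.1 CPM. Both genes were chosen after their values were seen, and no difference was tested. Cells with 2 or more Cd86 UMIs were deeper, with median depths of 7542 and 8970 UMIs against 6570 and 6060, and depth's part was not tested. In library 1, S100a10 was also at 34.6 CPM in cells with 1 UMI each of Cd86 and Cd83, where library 2 held 6.48 CPM.

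Klf2 was higher in Cd86-only cells as a whole than in both other groups. It was at 48.6 and 97.5 CPM in Cd86-only, 26.7 and 63.4 CPM in Cd83-only and 31.4 and 46.4 CPM in neither cells, with log2 differences of 0.72 (SE 0.16, edgeR adjusted p = 0.000286) and 0.82 (edgeR adjusted p = 0.00723). DESeq2 did not call it (adjusted p = 0.629). When cells with 2 or more UMIs of resting and memory B cell genes, Klf2 among them, were left out and germinal center genes were required, its difference was 0.00332. Cells with at least 2 such UMIs made up 10.6% of Cd86-only and 17.8% of Cd83-only cells in library 1 and 16.5% and 12.9% in library 2, with no common direction.

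Genes of resting and memory B cells moved both ways. Of 19 tested, 5 were lower and 2 higher (Klf2 and Cd44) in Cd86-only cells, with a median of -0.327. The median was above 0 with equal phases (0.233, 3 higher and 2 lower), with matched mitochondrial shares (0.0155), at a mitochondrial limit of 10% (0.128) and with at least 2 Cd86 UMIs (0.115). Ccr6, a chemokine receptor of naive and memory B cells, had 3 and 4 UMIs in Cd86-only cells against 24 and 19 in Cd83-only cells, a ratio of 8.09 (95% exact counting interval 2.46 to 42.0) and 4.80 (1.59 to 19.4) higher in Cd83-only cells. Its fitted log2 difference of -2.60 was -0.915 with equal phases, -1.23 at 6000 or more UMIs and -0.922 with Cd83 at least 1, where it was not called (edgeR adjusted p = 0.361, 0.271 and 0.405). Cd72, an inhibitory coreceptor, was at 68.6 and 87.9 CPM against 137 and 194 CPM, and Fcmr, an IgM Fc receptor, at 117 and 162 CPM against 189 and 249 CPM. DESeq2 called Cd72 and Fcmr. The naive B cell marker list, which holds Fcer2a, Fcmr and Klf2, summed to 318 and 459 CPM in Cd86-only and 500 and 683 CPM in Cd83-only cells. The part of naive or memory cells in these results was not tested.

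Isotypes differed by class. Among cells called IgG or IgM from at least 5 heavy chain UMIs, IgG cells were 63.6% of Cd86-only and 52.7% of Cd83-only cells in library 1 (143 of 225 and 135 of 256) and 56.2% and 42.8% in library 2 (73 of 130 and 59 of 138). The difference was 12.2 ± 1.77 percentage points (SD, n = 2 libraries), with overlapping binomial intervals in each library. Neither cells were at 53.4% and 53.6%. At a mitochondrial limit of 10%, with 55 and 23 cells of each class, the differences were 9.5 and -17.1 points, so that the direction did not hold in library 2. By gene, Ighg1 was at 1292 and 1287 CPM against 1127 and 939 CPM, Igha at 24.1 and 32.5 CPM against 10.3 and 10.4 CPM, and Ighm at 1696 and 1831 CPM against 1769 and 2417 CPM. Iglc1, a lambda light chain gene, was at 505 and 1271 CPM against 577 and 607 CPM, opposite in sign between the libraries.

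Plasma cell genes moved both ways. Mzb1 helps antibody chains assemble and was at 514 and 504 CPM in Cd86-only cells against 352 and 436 CPM in Cd83-only cells, and Jchain, which joins polymeric antibodies, at 528 and 510 CPM against 424 and 487 CPM. Hspa5, the endoplasmic reticulum chaperone, was lower, at 348 and 318 CPM against 449 and 420 CPM. In all, 3 of 9 such genes were higher and 1 lower in Cd86-only cells, at a median of -0.146. Without cells with 2 or more UMIs of markers of other lineages, 1 was higher and 4 lower, at a median of -0.41. With equal phases 2 were higher and 2 lower. DESeq2 called 0 of the 6 for which it gave an adjusted p, and edgeR without the library block called 0. Irf4, which drives plasma cell fate at high dose, was at 6.41 and 5.91 CPM against 11.4 and 10.4 CPM and was not called (edgeR adjusted p = 0.281), and cells with both held 32.5 and 28.1 CPM.

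Factors of germinal center identity moved both ways as well. Pou2f2 (OCT2), a B cell factor, was at 586 and 549 CPM in Cd86-only against 744 and 786 CPM in Cd83-only cells, whereas Pou2af1, its coactivator, was at 627 and 592 CPM against 508 and 474 CPM. Bcl11a, a zinc finger repressor needed for B lymphoid development, was lower in Cd86-only cells, at 276 and 276 CPM against 372 and 410 CPM. In all, 5 of 18 were lower and 3 higher, with a median of -0.0119. Swap70, an actin-binding protein of switching B cells, was at 273 and 335 CPM against 406 and 448 CPM. Smarca4, the ATPase of SWI/SNF chromatin remodelers, was higher in Cd86-only cells, at 537 and 527 CPM against 357 and 333 CPM, and higher still in neither cells. DESeq2 called Pou2f2, Swap70 and Smarca4.

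Several pathways gave few or no calls. Of 17 B cell receptor signalling genes 0 were called by edgeR, with a median of 0.0321, and of 16 cholesterol synthesis genes 0. Of 14 glycolysis genes Ldha alone was called, at 376 and 407 CPM against 470 and 512 CPM. Of 22 oxidative phosphorylation genes 2 were higher in Cd86-only cells, Sdhb and Ndufb8. Of 13 inhibitory coreceptors and phosphatases, Dok3, an adaptor that dampens receptor signalling, was higher at 278 and 319 CPM against 199 and 227 CPM, and 4 were lower, among them the phosphatase Ptpn6.

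Among genes named for the size of their change and not yet described, those higher in Cd83-only cells had several roles. Kdm6b, a demethylase of histone H3 lysine 27, was at 10.9 and 8.86 CPM in Cd86-only against 27.1 and 32.8 CPM in Cd83-only cells. St8sia6, a sialyltransferase, was at 7.92 and 8.86 CPM against 22.9 and 21.6 CPM. S1pr3, a sphingosine 1-phosphate receptor, was at 16.2 and 12.6 CPM against 35.5 and 41.0 CPM. Bcl3, described above among the NF-kB genes, was at 9.81 and 6.65 CPM against 24.0 and 25.4 CPM. These 4 genes rest on 122 (St8sia6) to 208 (S1pr3) UMIs over the 4 sums.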

How the data were processed

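Each deposited matrix holds raw UMI counts per gene and barcode, made with Cell Ranger 3.0.2, per the file headers. The submitters' processing notes name mm10 as the genome. The annotation and cell-calling settings are not given in the sources used here. The members and gene lists were chosen with earlier results of these data known. The libraries held 75121538 and 61874342 UMIs over 8765 and 7868 barcodes, of which 4839 and 3230 were kept and 2171 and 1438 had no Cxcr4 UMI. They shared 22 barcode sequences, 2 of them among members. Scrublet called 0 and 1 kept barcodes, so it did not work here, and no doublet was removed. Cells were matched in bins of 0.1 log10 UMIs by a seeded draw. Sums were fitted with edgeR 4.0.16 (TMM, filterByExpr, quasi-likelihood, library block, adjusted p below 0.05). The replicate number pairs the classes because both come from the same library. Named genes were the 12 of largest fold change in each direction among called genes with at least 100 UMIs and one sign, up to 3 per list by p, and a preset list. Other genes in the text (such as Cd48, Cd52, Jund, Klf2, Klf6, Lat2, Rel, S100a10, Slamf6 and Smarca4) were chosen after their values were seen. On simulated counts with 8663 genes for Cd86-only against Cd83-only, 100% of genes set at log2 changes of 2 or -2 were called, 98% at 1, 84% at -1 and 0.047% of unchanged genes. The counts were drawn with the common dispersion of the main fit (0.00168) for every gene and the same class difference in both libraries. Changes were set only in genes above a minimum count. These rates therefore cannot show how reliable the calls on the real counts are. Phases were scored in scanpy 1.11.5 at 3000 UMIs. IgG or IgM cells had at least 5 heavy chain UMIs, 80% of one kind. Coordinates are from GENCODE M21, and promoters from RefSeq on GRCm38.p6. Alternatives changed the tool, scaling, filters, matching and thresholds, and matching on mitochondrial share was chosen after seeing the data.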

Additional observations from a re-analysis of the deposited data

How the results depend on the processing

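The 425 genes called between Cd86-only and Cd83-only cells became 32 without the replicate block (library), 31 with DESeq2, 674 without matching on UMIs, 161 after thinning to 3000 UMIs, 94 at a mitochondrial limit of 10%, 263 at 6000 or more UMIs, 8 with Cd86 at least 2, 239 with Cd83 at least 1 and 265 without the highest 6% of doublet scores. Several of these settings keep fewer cells. The other settings gave 306 to 523. A second random draw of cells called 420 genes, of which 355 were among the 425. Leaving out the 1 called doublet, which also changed the draw, called 523 genes, of which 383 were among the 425. The set of called genes thus changed with the draw. For Cd86-only against neither cells, 57 became 0 without the replicate block, 11 with DESeq2, 95 without the low count filter, 0 without matching (656 genes at an unadjusted p below 0.05 by edgeR) and 1 at the 10% limit. For Cd83-only against neither cells, 688 became 222 without the replicate block, 166 with DESeq2, 1211 without matching and 34 at the 10% limit. The cause of these changes was not tested. All 77 called named genes kept their sign wherever they had a value, except H2-D1 at the 10% limit (0.0308) and Mki67 with equal phases (-0.0172). Leaving out replicate 1 or 2 left values with no test, all 77 of the same sign. For the genes named by size of change the naming rule had required one sign in both libraries, so this was set beforehand. The G2/M-like difference of 12 points ran from 8.3 to 15.8 points with 1 library left out. Scalings moved the median gene by at most 0.0097 on the log2 scale. Depth limits the low genes: Egr3, Egr2 and Ccr6 rest on 1 to 5 UMIs in Cd86-only sums.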

Other observations

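Genes outside the lists also separated the classes, and those named here were chosen after their values were seen. Slfn2, a gene of lymphocyte quiescence and expansion, was at 34.3 and 60.6 CPM in Cd86-only against 85.1 and 131 CPM in Cd83-only cells (log2 fold change -1.23, SE 0.14, edgeR adjusted p = 4.88e-16), and DESeq2 called it too. Among receptors, S1pr4, a sphingosine 1-phosphate receptor, was higher in Cd86-only cells, at 33.9 and 40.6 CPM against 19.8 and 20.1 CPM, opposite in direction to its relative S1pr3. Tgfbr1, a receptor chain for TGF-beta, was at 89.4 and 63.5 CPM against 45.0 and 38.8 CPM, with neither cells at 84.3 and 79.9 CPM. DESeq2 gave no adjusted p for S1pr4 and did not call Tgfbr1 (adjusted p = 0.35).

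Hbb-bt, a beta globin gene, was at 40.7 and 41.4 CPM in Cd86-only, 46.9 and 35.8 CPM in Cd83-only and 16.9 and 27.2 CPM in neither cells, and was higher in each marked class than in neither cells (log2 differences 0.97 and 1.05, edgeR adjusted p = 0.0155 and 0.000587). The 8 erythroid markers, of which Hbb-bt gave most UMIs, summed to 48.3 and 48.0 CPM (5 and 4 detected) in Cd86-only, 50 and 47.7 CPM (3 and 4 detected) in Cd83-only and 21.1 and 32.0 CPM (4 and 4 detected) in neither cells, and their part in this difference was not tested. Tmsb4x, an actin-sequestering peptide, was at 3878 and 4619 CPM in Cd86-only, 4049 and 4987 CPM in Cd83-only, 3114 and 3815 CPM in neither cells and 4915 and 6478 CPM in cells with both.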
